A study of Mus musculus with 9 samples.

Results

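The Rhox genes are a family of reproductive homeobox genes that lie side by side on the mouse X chromosome. They encode transcription factors with a DNA-binding homeodomain, and many of them are used in testis, ovary, epididymis or placenta. In the testis some members are made in Sertoli cells, the somatic cells that nurse the germ cells, and others in the germ cells themselves. The cluster is known to be silenced by DNA methylation in most somatic tissues, and Rhox5 is a classic androgen-dependent gene of Sertoli cells. A set of 10 members (Rhox1, Rhox2a, Rhox3a, Rhox5, Rhox8, Rhox9, Rhox10, Rhox11, Rhox12 and Rhox13) is described here, out of 31 Rhox genes and 23389 gene symbols in the table. They were chosen by name. Of the 10 names, 9 stand in the name column of the table, and Rhox3a was found by its RefSeq accession, in a row that the table names RHOX3. Each member had 1 row.

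The study asked how LIN28A, an RNA-binding protein of undifferentiated spermatogonia, acts on the transcripts of male germ cells. Whole-testis RNA from postnatal day 10 was sequenced as 3 Lin28a knockout libraries and 3 wild type libraries by their labels, all of strain C57BL/6, and the labels do not say which cells lost Lin28a or whether libraries came from separate animals. The 3 LIN28A CLIP samples, which hold RNA recovered together with the LIN28A protein, were not analysed here. The deposited table holds 1 pooled FPKM value (fragments scaled to transcript length and to library size) per group, in columns labelled case and control (the case column and the control column below), so no value below has an SD or n, the depth is unknown, and no test of its own could be run.

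The case column was read as the knockout and the control column as the wild type, from these names alone. Lin28a itself was at 23.4 FPKM in the case column and 8.82 FPKM in the control column, 2.66-fold higher where it should be lost, and q was 0.00191 in the authors' deposited table. The labels do not say which part of the gene was deleted. The level runs against the name of the column, so each direction given here holds only as far as those names do. The Sertoli markers Sox9, Amh, Wt1, Dhh, Fshr and Cst9 and the germ cell markers Ddx4, Dazl, Zbtb16, Kit, Stra8 and Sycp3 were all above 1 FPKM in both columns. Over the 12665 genes whose mean FPKM reached 1, log2(FPKM + 1) in the case column minus that in the control column had a median of 0.03, and 39.2% of genes were lower in the case column. The X chromosome held 540 of these genes, of which 51.5% were lower, with a median of -0.0032. In whole testis, fewer cells of a type and less RNA per cell cannot be told apart.

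Promoter sequences of the members were compared with each other and with those of tandem copies. RefSeq (GRCm38.p6, the assembly behind mm10) gave a window for 8 of the 10 members, and the 250 bases before the annotated start are used here. The windows of Rhox5, Rhox10, Rhox13 and Rhox2a are shown because they head the members with the clearest values and known cell types or copies, and that of Rhox2e because it is one of the copies most alike to Rhox2a. Capitals mark AGAACA, a hexamer bound by steroid hormone receptors, AACAAT, a SOX site, and TATAAA, the TATA box, each searched on both strands. All lie on the plus strand, at chrX:37754358-37754607, chrX:38066225-38066474, chrX:38120590-38120839, chrX:37244742-37244991 and chrX:37530218-37530467 in the order given.
Rhox5: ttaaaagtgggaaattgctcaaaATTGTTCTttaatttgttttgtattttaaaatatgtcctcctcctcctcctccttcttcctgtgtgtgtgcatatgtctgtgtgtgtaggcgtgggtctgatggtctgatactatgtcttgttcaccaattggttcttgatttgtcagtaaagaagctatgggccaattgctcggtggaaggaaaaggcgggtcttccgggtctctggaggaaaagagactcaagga
Rhox10: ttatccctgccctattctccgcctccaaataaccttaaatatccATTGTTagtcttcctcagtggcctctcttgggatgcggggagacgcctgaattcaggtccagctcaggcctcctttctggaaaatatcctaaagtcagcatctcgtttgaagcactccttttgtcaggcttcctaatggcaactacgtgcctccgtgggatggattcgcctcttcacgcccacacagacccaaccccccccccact
Rhox13: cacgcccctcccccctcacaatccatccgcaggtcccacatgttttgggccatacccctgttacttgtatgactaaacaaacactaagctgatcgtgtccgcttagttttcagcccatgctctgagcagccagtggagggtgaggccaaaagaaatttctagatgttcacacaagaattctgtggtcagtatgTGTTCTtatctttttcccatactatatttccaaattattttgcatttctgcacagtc
Rhox2a: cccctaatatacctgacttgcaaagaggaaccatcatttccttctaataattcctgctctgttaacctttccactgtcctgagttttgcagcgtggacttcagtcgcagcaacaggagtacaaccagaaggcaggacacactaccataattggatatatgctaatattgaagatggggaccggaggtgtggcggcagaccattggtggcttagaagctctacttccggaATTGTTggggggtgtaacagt
Rhox2e: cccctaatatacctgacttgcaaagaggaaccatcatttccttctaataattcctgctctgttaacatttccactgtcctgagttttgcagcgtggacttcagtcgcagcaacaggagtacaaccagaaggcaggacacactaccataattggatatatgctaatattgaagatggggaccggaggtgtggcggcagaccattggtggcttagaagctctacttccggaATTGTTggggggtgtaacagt

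The Rhox5 window held a SOX match starting 227 bases before the annotated start, which overlaps an AGAACA match at 225. Rhox13 held an AGAACA match at 57 bases, Rhox10 a SOX match at 206, and Rhox2a a SOX match at 21. AGAACA was present in 16.1% and a SOX match in 9.42% of all 32851 promoter windows. They were in 9 and 10 of the 28 Rhox windows, but tandem copies repeat a window, and no excess is read from these counts. Of the 10 windows with a SOX match, 6 belong to Rhox2 copies and 2 are the identical windows of Rhox3a and Rhox3h, leaving those of Rhox5 and Rhox10. Rhox3a and Rhox3h are also 2 of the 9 with AGAACA, and 3 more are Rhox4 copies. These are matches of letters and say nothing of binding. The TATA box was in 1 Rhox window, that of Rhox12, and in 12.4% of all windows. Rhox5 is known to have a second promoter further inside its locus, which is the androgen-dependent one in testis and epididymis. The window above heads the 54.3 kb row of the table and does not cover it. CG dinucleotides, the targets of DNA methylation, numbered 4 in the Rhox5 window, 4 in that of Rhox13 and 8 in that of Rhox10, beside a median of 6 over all windows. Among Rhox1, Rhox2a, Rhox5, Rhox10 and Rhox13, the windows were 40.4% to 47.6% identical in pairs. The identity of unrelated promoters was not computed, so no likeness is read from these values. Rhox2a and Rhox2e were 99.6% identical, the highest value among pairs of the 7 Rhox2 windows, whose median was 90.8% and lowest value 81.2%. The 7 Rhox4 windows had a median of 90.0% and a lowest value of 75.2%. The 7 Rhox3 windows ran from 41.6% to 100%, with a median of 44.4%, and fell into groups. Rhox3a and Rhox3h were identical, and pairs among Rhox3a2, Rhox3c, Rhox3e and Rhox3f were 91.6% to 99.6% identical. Rhox3g scored 43.6% with Rhox3e, though the start of its window nearly repeats the end of the Rhox3e window. Windows were compared end to end, so such a shift scores low.

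Rhox5 was the member with the largest difference among those the authors tested, and Rhox8, the other member known from Sertoli cells, stood nearly level. Rhox5 (NM_008818; mm10 chromosome X, 37754608 to 37808878), whose loss in mice is known to raise germ cell death and lower sperm number, was at 8.90 FPKM in the case column and 19.3 FPKM in the control column. It was 2.17-fold lower in the case column, and the authors' deposited table gives it p = 0.0254 and q = 0.999966. It did not pass the threshold of q under 0.05. Rhox8 (NM_001004193; chromosome X, 37874776 to 37878944), the most abundant member, was at 194 FPKM in the case column and 183 FPKM in the control column. This is 1.06-fold higher, with p = 0.740 in the authors' deposited table. Both genes lie in the middle of the cluster, yet Rhox8 stood at 21.8 times the FPKM of Rhox5 in the case column and 9.49 times in the control column. Rhox8 made up 73.9% and 67.5% of the FPKM summed over all 31 Rhox genes in the case and control columns. The sum of the Sertoli members, 202.5 FPKM in the case column and 202.2 FPKM in the control column, thus hides the difference at Rhox5.

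**Figure D1:**
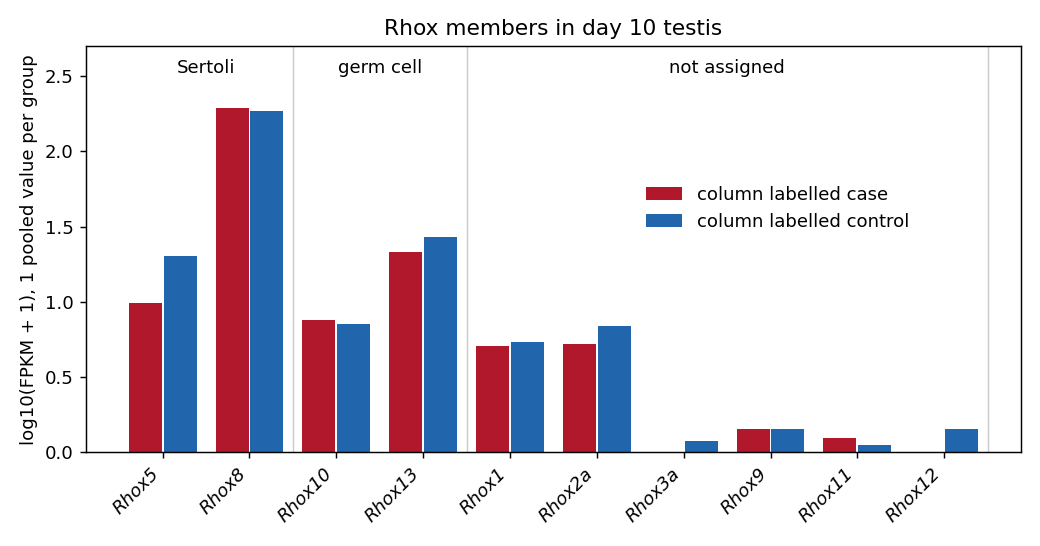
Bars give log10(FPKM + 1) of each Rhox member, with the case column in red to the left of the control column in blue, 1 pooled value per group without replicates. Rhox5 is at 8.90 and 19.3 FPKM, Rhox8 at 194 and 183, and the 4 members from Rhox3a to Rhox12 lie near the floor.

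The germ cell members were at moderate levels. Rhox13 (NM_001185002; chromosome X, 38120840 to 38129966), a germ cell protein whose translation is known to be stimulated by retinoic acid around meiotic entry, was at 20.6 FPKM in the case column and 26.2 FPKM in the control column. It was 1.27-fold lower, with p = 0.287 in the authors' deposited table. Rhox10 (NM_001024850; chromosome X, 38066475 to 38071688), which is needed for the first spermatogonial stem cells to form, was at 6.59 FPKM in the case column and 6.09 FPKM in the control column, with p = 0.835 in the authors' deposited table. The pair thus lay on opposite sides of 0, at log2(FPKM + 1) differences of -0.33 for Rhox13 and 0.10 for Rhox10. Rhox13 stood at 3.12 times the FPKM of Rhox10 in the case column and 4.29 times in the control column.

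The other members are not assigned to a cell type here. Rhox1 (NM_001025084), at the start of the cluster, was at 4.09 FPKM in the case column and 4.40 FPKM in the control column, with p = 0.856 in the authors' deposited table. Rhox2a (NM_029203) was at 4.27 FPKM in the case column and 5.93 FPKM in the control column, with p = 0.415 in the authors' deposited table. The remaining 4 members were under 0.5 FPKM in both columns and were not tested by the authors (status NOTEST). Rhox9, known from fetal gonads and placenta, was at 0.428 FPKM in the case column and 0.432 FPKM in the control column. Rhox11 was at 0.255 and 0.127 FPKM in the case and control columns. Rhox12 was listed at 0 in the case column and at 0.428 FPKM in the control column. Rhox3a was listed at 0 in the case column and at 0.195 FPKM in the control column. At these levels the table gives no test, and no fold is drawn from a column listed at 0.

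In order of FPKM in the case column, the tested members ran Rhox8, Rhox13, Rhox5, Rhox10, Rhox2a and Rhox1. In the control column the order was the same. Without values per library it cannot be said which neighbours in this order differ beyond their spread; Rhox2a and Rhox1 lay within 0.2 FPKM of each other in the case column.

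Of the 6 members whose mean FPKM reached 1, 4 were lower and 2 higher in the case column, where 39.2% of all genes at that level were lower. With the 4 members under that level included, 7 of 10 were lower and 3 higher. Those 4 were not tested by the authors. No share over all genes without that filter was computed, so no excess is read from 7 of 10. Of the 6 members tested, 0 passed a q-value of 0.05 in the authors' deposited table, made with a program that the sources used here do not name, and 0.0514% of the 13629 tested rows did. At an unadjusted p under 0.05, 1 member, Rhox5, was lower in the authors' deposited table, where 0.631% of tested rows were, and 0 members were higher, where 0.646% of tested rows were. Rhox5 was also the single member whose mean FPKM reached 1 that differed by 1.5-fold or more, where 1.41% of genes were lower and 1.31% higher by that much. Among all tested rows, 113 had a p-value at or under that of Rhox5 in the authors' deposited table. Of the 13586 tested rows above 0 in both columns, 143 were lower by at least its fold. Of 605 tested rows on the X chromosome, 13 had an unadjusted p under 0.05 in the authors' deposited table, 10 of them lower.

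**Figure D2:**
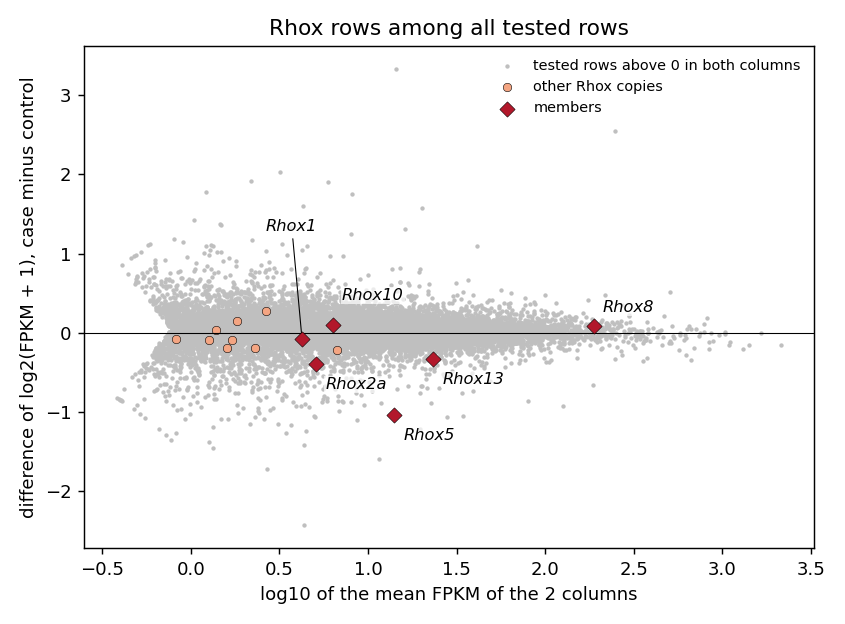
Each grey point is a tested row above 0 in both columns, with the log10 of its mean FPKM across and log2(FPKM + 1) of case minus that of control upward; diamonds are the tested members and circles the other tested Rhox copies. Rhox5 lies below the dense band at -1.03, while Rhox8, Rhox10 and Rhox1 lie close to 0.

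None of the other Rhox copies whose mean FPKM reached 1 differed by 1.5-fold or more. The other 21 Rhox genes summed to 23.2 FPKM in the case column and 24.9 FPKM in the control column. Of these, 14 were lower and 7 higher, 9 were tested, and the p-values of the tested ones ran from 0.584 to 0.947 in the authors' deposited table. Of the 8 whose mean FPKM reached 1, 5 were lower, where 39.2% of all genes at that level were. Rhox6 and Rhox7a, the rows between Rhox5 and Rhox8, were at 0.397 and 0.678 FPKM in the case column and at 0.355 and 0.495 FPKM in the control column. Rhox2h, the nearest row before Rhox5, was at 1.41 FPKM in the case column and 1.35 FPKM in the control column. Over the 8 copies whose mean FPKM reached 1, the differences of log2(FPKM + 1) ran from -0.21 to 0.27, beside -1.03 for Rhox5. The other 13 copies were under that level, where adding 1 to FPKM holds the difference near 0, and their values are not set against that of Rhox5. By fold, 2 of them were further apart than Rhox5 without a test in the authors' deposited table. Rhox3c was at 0.0396 FPKM in the case column and 0.180 FPKM in the control column, 4.55-fold lower, and Rhox3f was at 0.205 FPKM in the case column and 0.562 FPKM in the control column, 2.74-fold lower.

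Rhox2, Rhox3 and Rhox4 exist as tandem copies. The 8 Rhox2 copies summed to 21.9 FPKM in the case column and 24.7 FPKM in the control column, with 5 lower and 3 higher. Rhox2e was the highest of them, at 6.13 FPKM in the case column and 7.28 FPKM in the control column. The 6 Rhox3 copies were all lower, summing to 1.74 FPKM in the case column and 2.77 FPKM in the control column. Of these, 1 had a mean FPKM of at least 1 and was tested, Rhox3e. It was at 1.20 FPKM in the case column and 1.34 FPKM in the control column, with p = 0.865 in the authors' deposited table. The 7 Rhox4 copies summed to 2.73 and 2.77 FPKM in the case and control columns. The sources used here do not say how reads shared by several copies were counted, so the value of a single copy, Rhox2a and Rhox3a included, is uncertain.

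**Figure D3:**
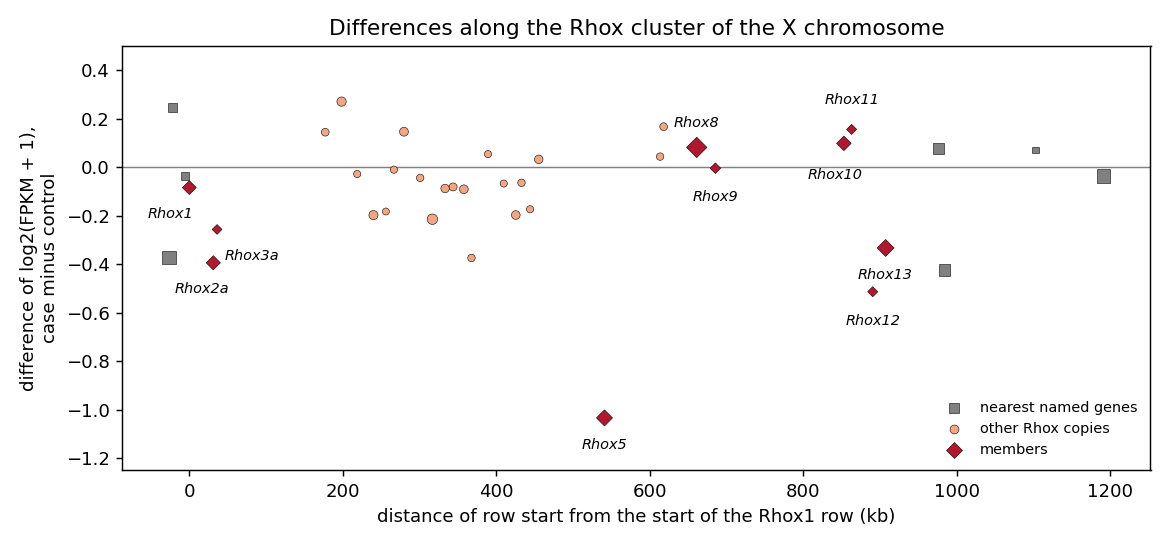
The distance of each row's start from that of Rhox1, in kb, runs across, and log2(FPKM + 1) of case minus that of control runs upward; larger symbols mean higher FPKM. Diamonds are the members, circles the other Rhox copies and squares the nearest named genes outside the cluster; Rhox5, at -1.03, lies apart from the rows on both sides of it, and rows under 1 FPKM lie near 0 whatever their fold.

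Genes that border the cluster lay on both sides of 0. Gm9 was at 1.14 FPKM in the case column and 1.19 FPKM in the control column. Rnf113a1 was at 2.21 FPKM in the case column and 1.70 FPKM in the control column. Ndufa1, a subunit of respiratory complex I, was at 88.0 FPKM in the case column and 114 FPKM in the control column. Past Rhox13, Zbtb33 stood at 15.2 FPKM in the case column and 14.4 FPKM in the control column. Tmem255a was at 12.8 and 17.6 FPKM in the case and control columns, and Lamp2, a lysosomal membrane protein, at 68.2 and 70.0 FPKM. Akap14 and Atp1b4, the other two, were at or near 0 in both columns. None of the bordering genes with a test had a p-value under 0.05, the smallest being 0.112 in the authors' deposited table.

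Sertoli markers lay on both sides of 0. Of 22 markers, 11 were lower and 11 higher, with a median difference of 0.02 beside 0.03 over all genes and a range of -0.91 to 0.68. Their highest genes were Clu, at 2028 FPKM in the case column and 2251 FPKM in the control column, Cst12, at 1061 and 1150 FPKM, and Aard, at 1032 and 1042 FPKM. Tsx, another X-linked Sertoli gene, was at 6.27 FPKM in the case column and 12.7 FPKM in the control column, 2.02-fold lower with p = 0.0595 in the authors' deposited table. At the other end, Hsd17b1, a steroid dehydrogenase, was at 11.4 FPKM in the case column and 6.72 FPKM in the control column, 1.69-fold higher with p = 0.0746 in the authors' deposited table. Cst9 was at 596 FPKM in the case column and 416 FPKM in the control column, 1.43-fold higher with p = 0.0593 in the authors' deposited table. Cst9 was a planned Sertoli marker, but the values of these 3 genes were picked out after they were seen. Of 8 known regulators of Rhox genes whose mean FPKM reached 1, 2 were lower and 6 higher, within -0.11 and 0.21. Dnmt1, the maintenance DNA methyltransferase, was at 60.7 and 59.9 FPKM in the case and control columns, Ehmt2, a histone H3 lysine methyltransferase, at 75.4 and 75.1 FPKM, and Gata4, a Sertoli transcription factor, at 75.8 and 68.7 FPKM. Of the 22 Sertoli markers and 3 regulators with a test, 0 had p under 0.05 in the authors' deposited table.

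Other androgen-dependent genes of Sertoli cells were lower by small amounts. All 7 on that list were lower, where 39.2% of all genes were. Their median difference was -0.12, beside 0.03 over all genes, with a range of -0.49 to -0.06. Of the 6 with a test, 0 had p under 0.05 in the authors' deposited table. Tubb3, a tubulin, was at 76.0 FPKM in the case column and 82.1 FPKM in the control column. Jam3, a junction protein, was at 54.5 and 57.7 FPKM in the case and control columns, and Eppin, a protease inhibitor, at 52.9 and 57.4 FPKM. Leydig cell and androgen synthesis genes lay the other way, with 7 of 9 higher, where 60.8% of all genes were, and a median of 0.31. Hsd3b1, a steroid dehydrogenase, was at 109 FPKM in the case column and 92.5 FPKM in the control column, Insl3, a Leydig cell hormone, at 99.6 and 76.9 FPKM, and Cyp11a1, which starts steroid synthesis, at 45.7 and 32.4 FPKM. Of these 9 genes, 1 had p under 0.05 in the authors' deposited table, where 0.646% of tested rows were higher at that p. It was Hsd17b3, which makes testosterone, and it was higher. The part of either list in the Rhox5 value was not tested.

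Rhox5 is also made in the epididymis, which can come along with a dissected testis. All 16 genes on the epididymis list are in the table, and they summed to 26.1 FPKM in the case column and 19.2 FPKM in the control column. The secreted epididymal lipocalins Lcn5, Lcn8 and Lcn9 were listed at 0 in both columns, and Adam7 and Rnase9 were under 0.1 FPKM in both. Of the duct epithelium genes, Pax2 was at 1.19 FPKM in the case column and 0.583 FPKM in the control column, while Pax8 was at 0.390 FPKM in the case column and 0.980 FPKM in the control column. Krt8 was at 0.779 FPKM in the case column and 1.26 FPKM in the control column. These 3 genes went different ways, and their p-values ran from 0.0597 to 0.352 in the authors' deposited table. The highest genes of the list were Cst8, at 17.6 FPKM in the case column and 9.65 FPKM in the control column, Krt18, at 2.85 and 2.89 FPKM, and Cst11, at 2.999 and 1.42 FPKM. Crisp1, a secreted epididymal protein, was at 0.261 FPKM in the case column and 2.27 FPKM in the control column, with p = 0.00256 in the authors' deposited table. It was a planned marker, but the lists were chosen with earlier results of these data known. The direction of the sum rests on Cst8: the other 15 genes summed to 8.47 FPKM in the case column and 9.56 FPKM in the control column. Of the 5 genes whose mean FPKM reached 1, 3 were lower and 2 higher, with a median of -0.01. The part of epididymal tissue in the Rhox5 value was not tested.

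Germ cell lists surround Rhox13 and Rhox10 with different values. Undifferentiated spermatogonia genes, the stage at which Rhox10 acts, had a median of 0.04, with 4 of 12 lower; Zbtb16, a stem and progenitor cell factor, was at 16.8 FPKM in the case column and 14.9 FPKM in the control column, Etv5 at 10.7 and 10.4 FPKM, and Sall4 at 10.6 and 10.2 FPKM. Differentiating spermatogonia genes had a median of -0.01, with 4 of 8 lower. Stra8, a retinoic acid target, was at 68.1 FPKM in the case column and 86.3 FPKM in the control column. It was 1.27-fold lower with p = 0.164 in the authors' deposited table. Neither Stra8 nor Rhox13 passed the threshold, and a part of retinoic acid in either value was not tested. Sohlh1 was at 42.8 and 42.4 FPKM in the case and control columns, and Ccnd2 at 33.7 and 29.6 FPKM.

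Germ cell genes elsewhere on the X chromosome were mostly lower, as Rhox13 was and Rhox10 was not. Of 12 analysed, 10 were lower, where 51.5% of X-linked genes were. Their median was -0.21, and 0 had p under 0.05 in the authors' deposited table. Taf7l, a germ cell transcription factor subunit, was at 118 FPKM in the case column and 137 FPKM in the control column. Nxf2, an RNA export factor, was at 59.8 and 64.3 FPKM in the case and control columns, and Tex11, of meiotic recombination, at 38.7 and 50.4 FPKM. Meiotic prophase genes, which also count Tex11, were all 26 lower, where 39.2% of all genes were, with a median of -0.44. Of the 24 with a test, 8 had p under 0.05 in the authors' deposited table, where 0.631% of tested rows were lower at that p. In this list Sycp3, which had status FAIL and so no test, was at 69.2 FPKM in the case column and 125 FPKM in the control column. Syce2 was at 82.9 and 89.3 FPKM in the case and control columns, and Sycp1 at 38.5 and 59.1 FPKM. The part of meiotic cell content in the Rhox13 value was not tested.

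**Figure D4:**
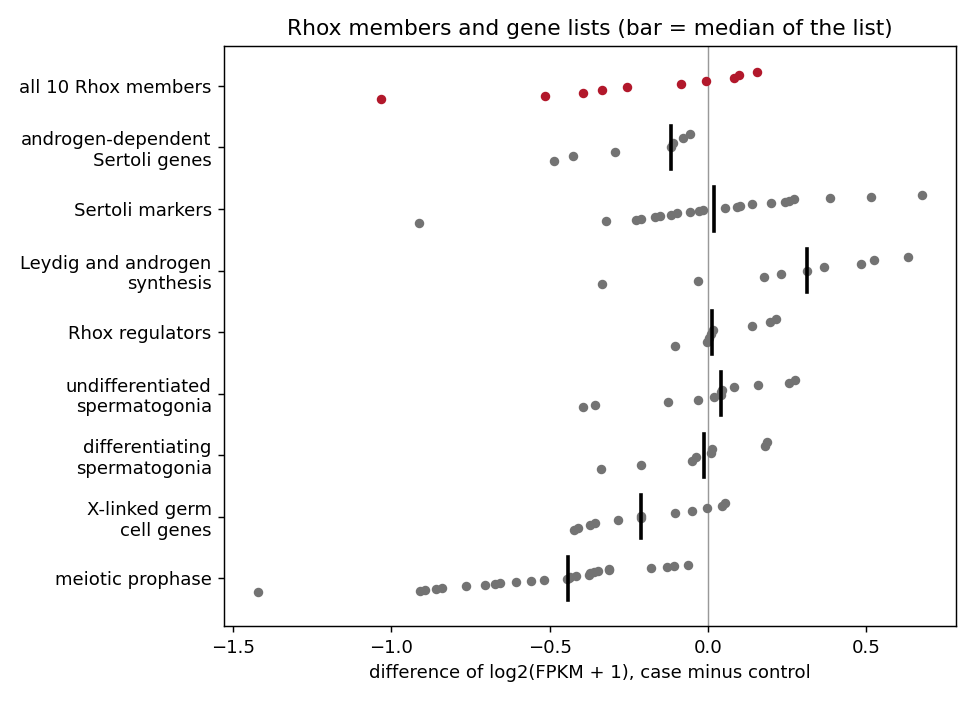
Points are single genes, placed by log2(FPKM + 1) of case minus that of control, with all 10 Rhox members in red and, for the other lists, the genes whose mean FPKM reached 1 in grey and their median as a bar. The Rhox members run from -1.03 to 0.16, beside medians of -0.12 for androgen-dependent Sertoli genes, 0.02 for Sertoli markers and -0.44 for meiotic prophase genes.

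Of 5 genes reported to respond to RHOX proteins, 3 had a mean FPKM of at least 1. Dmrt1, a factor that RHOX10 is known to induce, was at 124 FPKM in the case column and 119 FPKM in the control column, with p = 0.833 in the authors' deposited table. Ins2, the insulin gene that RHOX5 is known to induce, was at 5.25 FPKM in the case column and 5.20 FPKM in the control column, summed over 3 rows that went apart. Its highest row (NM_001185083) was at 3.84 FPKM in the case column and 4.76 FPKM in the control column, and the authors' deposited table gives it p = 0.735. Another row (NM_008387) was at 0.810 FPKM in the case column and listed at 0 in the control column. Unc5c, a netrin receptor gene that RHOX5 is known to repress, was under 0.1 FPKM in both columns, too low to read, and Adipoq, the adiponectin gene, was at 0.0758 FPKM in the case column and 0.176 FPKM in the control column. Zbtb16, which is also on the undifferentiated spermatogonia list, was at 16.8 FPKM in the case column and 14.9 FPKM in the control column. Of the 3 genes whose mean FPKM reached 1, Dmrt1, Ins2 and Zbtb16, 0 were lower by their summed FPKM. None of them had p under 0.05 in the authors' deposited table. Other cell types were described for the background of these values. Peritubular and stromal genes were higher in 11 of 11 and endothelial genes in 7 of 8, where 60.8% of all genes were. Their medians were 0.16 and 0.23. Macrophage genes were lower in 8 of 8, where 39.2% of all genes were, with a median of -0.15. The part of these cell types in the Rhox values was not tested.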

How the data were processed

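Per the submitters' processing notes, TopHat2 (version 2.0.9) was used with the mm10 build. The authors deposited FPKM in 2 pooled columns, with 1 row per RefSeq transcript accession, and p-values and q-values of their own test, per the file headers; no source used here names the program that made them. The deposited log2 ratio is that of control over case, within 5.01e-05 in all 13586 tested rows above 0 in both columns. The deposited q-values were those of a Benjamini-Hochberg adjustment over the 13629 rows of status OK (largest gap 2.26e-06). Of 29661 rows, 29072 took their symbol by accession from RefSeq (GRCm38.p6), and 1 was added to the table's starts, which were read as counting from 0.

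FPKM was summed over the rows of a gene, and differences are of log2(FPKM + 1), case minus control, which understates changes of low genes. A planned limma fit needs values per library, so calls are the authors' at q under 0.05. Members and lists were chosen with earlier results of these data known. Named genes are all Rhox rows, Lin28a and the 4 nearest named genes on either side of the cluster. From each list, the 3 genes with the highest mean FPKM are named. Planned cell type markers, among them Cst9, Crisp1 and Pax2, are named as well, and the value of Cst9 was picked out after it was seen. Other names, such as Tsx, Hsd17b1, Hsd17b3, Pax8, Krt8, Adipoq and Unc5c, were chosen after their values were seen. For peritubular, endothelial and macrophage lists only counts are given. Python 3.11.15, pandas 2.3.3 and numpy 2.4.6 were used, and the scripts were tested on simulated data.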

Additional observations from a re-analysis of the deposited data

How the results depend on the processing

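Of 66 values of single members under alternatives (pseudocounts of 0.1 and 0.5, the highest row alone, tested rows alone, median-of-ratios rescaling, centring on X-linked genes, and matching by accession), all kept their sign and 6 moved by over 0.1. These 6 belong to Rhox3a, Rhox11 and Rhox12 with smaller pseudocounts, where Rhox12 reached -2.40. Because each member stood in a single row, the highest row alone, tested rows alone and matching by accession could not change any value. A smaller pseudocount cannot change a sign. Only rescaling and centring could have, so most of the kept signs were fixed in advance. The Rhox5 difference ran from -1.11 to -1.03. The count of 6 lower members of the 9 matched by name was 7 with Rhox3a added by accession and 4 with the 6 tested members alone. The median of -0.48 of the Sertoli members became 0.0022, and that of -0.12 of the germ cell members -0.24, when FPKM was summed over each pair before the difference, an alternative chosen after seeing the data, since Rhox8 and Rhox13 outweigh their partners. The count of members passing stayed 0 at q under 0.10 and with adjustment over rows at a mean FPKM of at least 1. Lists with a median below that of all genes numbered 8, or 9 with no filter. The 8 include Sertoli markers and Rhox regulators, whose medians of 0.02 and 0.01 lay just under the 0.03 of all genes. The Lin28a difference of 1.32 was 1.40 with a pseudocount of 0.1. In 2 comparisons added after seeing the data, the difference of the summed epididymis list, case minus control, was 6.89 FPKM with all genes and -1.09 FPKM without Cst8, and the lowest difference among the other 21 Rhox genes, -0.37, was -1.12 with a pseudocount of 0.1 and -0.21 among copies at a mean FPKM of at least 1. Leaving out each library was not run, since the table has no value per library. No paired analysis was possible because the table gives 1 value per group. With the depth unknown, no interval is given.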
